A study of Mus musculus with 56 samples.

Results

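The liver microRNAs of mice that lost miR-122 through Cre driven by the Albumin promoter were compared with those of uninjected floxed mice. The comparison takes 5 of the 56 samples of the series, which are 5 of its 42 small RNA libraries. They are the 2 libraries of genotype LKO_flox that received no AAV-Cre (LKO, for liver-specific knockout, replicates A and B) and the 3 libraries of uninjected miR-122 floxed mice (day 0, replicates A, B and C). The members were chosen by these labels, with no measured value. Each library is the liver of 1 mouse and the strain background of all is 129Sv/J. Both groups carry loxP sites around the miR-122 precursor, and the LKO mice carry in addition a Cre under the Albumin promoter, which is active in cells of the hepatocyte lineage from before birth. Ages, sex, litters and dates of collection of these 5 mice are not given, so an effect of any of these and of the genotype cannot be told apart. Beside them stand 2 LKO mice that also received rAAV8-Cre (LKO with AAV-Cre, genotype LKO_floxCre, whose time after injection is not given) and 3 floxed mice taken 45 days after rAAV8-Cre under the Ef1a promoter (day 45).

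A microRNA is cut from a hairpin precursor, and bases 2 to 8 of the mature strand, the seed, pair with the mRNAs it lowers. miR-122 is made almost entirely in hepatocytes, where it is the most abundant microRNA. The microRNAs of chr12qF1, the Dlk1-Dio3 region, come from maternally expressed noncoding transcripts (Meg3, Rian and Mirg) of an imprinted domain that is active in the embryo and quiet in the adult liver. miR-483 lies in an intron of Igf2 and miR-675 is cut from H19, the neighbours at a second imprinted domain that is also silenced in the liver after birth. The miR-200 family and miR-205 are microRNAs of epithelia, which in the liver means the bile ducts, and miR-199a, miR-199b and miR-214 are microRNAs of mesenchymal cells such as stellate cells and fibroblasts.

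The sequences below are those of the microRNAs on which the results turn, written 5′ to 3′ with the seed in capitals and taken from RefSeq (GRCm38.p6). The table of values holds 1 row per hairpin and does not separate its arms, and both arms are shown only where they help to tell hairpins apart. Names matched RefSeq entries for 345 of the 479 microRNAs listed, and for 49 of the 50 that passed the test described below. The first set holds the most abundant chr12qF1 microRNAs of the LKO livers and miR-410, the last hairpin of the locus.
miR-127-3p: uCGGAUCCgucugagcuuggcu
miR-136-5p: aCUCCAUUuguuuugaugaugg
miR-376a-3p: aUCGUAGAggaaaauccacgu
miR-376b-3p: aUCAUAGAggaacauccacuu
miR-154-5p: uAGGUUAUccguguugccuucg
miR-541-5p: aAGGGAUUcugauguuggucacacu
miR-410-3p: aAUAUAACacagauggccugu
All of these lie on the plus strand, between chr12:109563692-109743795, the span of the locus by RefSeq hairpins. miR-376a-3p and miR-376b-3p differ in the seed at a single base, G4A counted from the 5′ end, and at 3 of 21 aligned bases in all, so they are separate sequences with separate seeds. The next set holds both arms of the Igf2 and H19 hairpins, on the minus strand of chromosome 7, with miR-675-3p at chr7:142577078-142577099 and miR-483-3p at chr7:142654932-142654952.
miR-483-5p: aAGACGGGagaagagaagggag
miR-483-3p: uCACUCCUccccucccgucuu
miR-675-5p: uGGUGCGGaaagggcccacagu
miR-675-3p: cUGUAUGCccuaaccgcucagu
The last set holds microRNAs outside both loci that passed the test, chosen to show which of them share a seed.
miR-200a-3p: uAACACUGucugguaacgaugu
miR-141-3p: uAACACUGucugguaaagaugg
miR-200b-3p: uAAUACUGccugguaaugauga
miR-429-3p: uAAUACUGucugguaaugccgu
miR-205-5p: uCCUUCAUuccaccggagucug
miR-199a-3p: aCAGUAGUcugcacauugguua
miR-199b-3p: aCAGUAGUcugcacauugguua
miR-214-3p: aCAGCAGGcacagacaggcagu
miR-342-3p: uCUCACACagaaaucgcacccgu
miR-195a-5p: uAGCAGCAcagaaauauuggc
miR-200a-3p and miR-141-3p share the seed AACACUG, miR-200b-3p and miR-429-3p share AAUACUG, and the seeds of these pairs differ by C4U. The mature strands miR-200a-3p and miR-141-3p differ at 2 of 22 aligned bases, no more than the 2 mismatches that the authors allowed in the alignment, and miR-199a-3p and miR-199b-3p are identical over their whole length. Reads of such pairs may have been exchanged or counted at both hairpins, and the split between the members of a pair is uncertain.

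The libraries held 618496 to 808301 microRNA reads at day 0 and 362884 and 525673 in LKO. miR-122 took 73.3%, 59.2% and 66.7% of them in day 0 A, B and C, and 9.38% (95% Wilson interval 9.29 to 9.48) and 3.09% (3.04 to 3.13) in LKO A and B. The groups do not overlap, and the mean fell from 66.4 ± 7.06% (SD, n = 3) to 6.23 ± 4.45% (SD, n = 2), 12.3-fold on the log scale (exact two-sided permutation test, p = 0.1, the smallest that 2 against 3 libraries can give). Counted per read of any other microRNA the drop was 34.8-fold, since a microRNA that holds most reads at day 0 compresses its own share. LKO A kept 3.25 times as much miR-122 per other read as LKO B. Without LKO A the fall of the share was 21.4-fold, and without LKO B it was 7.05-fold. In the 2 LKO livers that also received AAV-Cre the share was 0.837% and 1.11%, and at day 45 it was 0.908%, 0.383% and 1.23%, so each LKO liver without the vector held more miR-122 than any of these 5. Fewer cells with miR-122 and less miR-122 per cell cannot be told apart in whole liver.

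**Figure D1:**
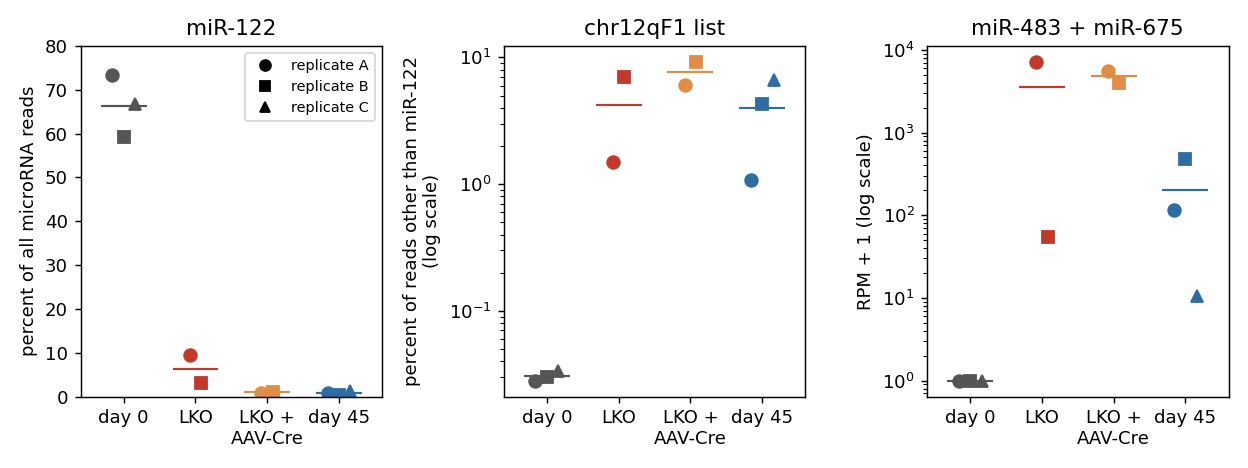
Values of each library (circle, replicate A; square, B; triangle, C; line, group mean) for miR-122 as a percent of all microRNA reads, for the summed chr12qF1 list as a percent of reads other than miR-122 (log axis), and for miR-483 plus miR-675 in RPM + 1 (log axis, where 1 is no read). The 3 day 0 libraries stand apart from the 2 LKO libraries in all 3 panels, and LKO A and B change places between the second and the third panel.

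Since the removal of miR-122 frees reads for every other microRNA, all values below are RPM, reads per 1000000 reads other than miR-122. These other reads number 215896, 252519 and 247769 at day 0 and 328841 and 509447 in LKO. A microRNA with no read may have had up to 3, which is 13.9 RPM in the shallowest day 0 library, 9.12 RPM in LKO A and 5.89 RPM in LKO B. These limits and intervals cover counting error only.

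Of 251 microRNAs with enough reads to test (a mean of at least 10 RPM over the 5 libraries), 50 were higher in LKO at a Benjamini-Hochberg adjusted p under 0.05 (limma on log2(RPM + 1)), which is 19.9%, and none was lower. At an unadjusted p under 0.05, 69 passed (27.5%). Both LKO libraries lay above all 3 day 0 libraries for 86 microRNAs (34.3%) and below them for 5 (1.99%). The 50 hold 34 microRNAs of the chr12qF1 list, both of the Igf2 locus and 14 others, with log2 differences from 1.41 to 8.92. The median over all 251 was 0.65, so the typical microRNA was itself somewhat higher per other read in LKO. With every library centred on its median log2 ratio to the mean of the 19 fitted libraries, the median over all 251 became −0.30. In that setting 38 were higher and 6 lower (miR-130a, miR-185, miR-26b, miR-486, miR-805 and miR-93), and all 38 are among the 50.

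**Figure D2:**
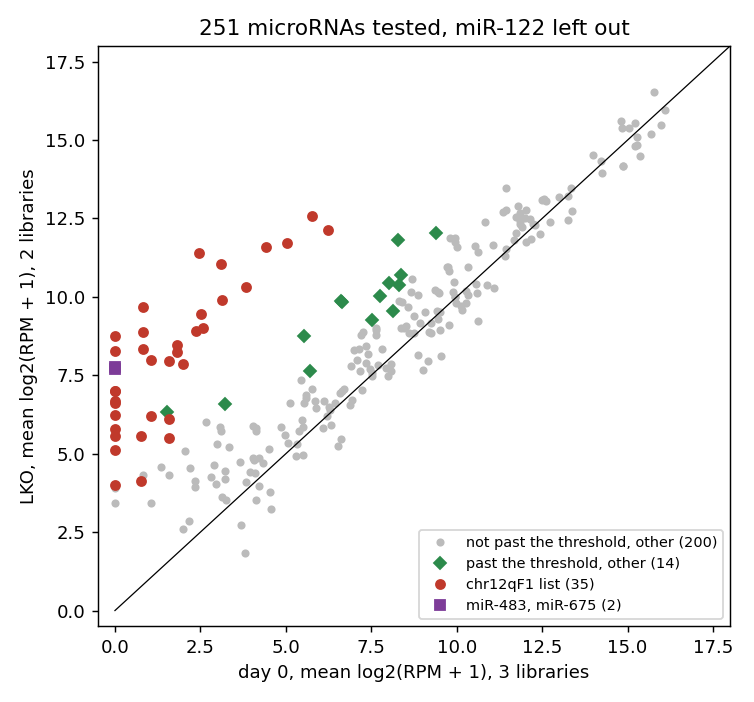
Mean log2(RPM + 1) of each of the 251 tested microRNAs in the 2 LKO libraries (vertical) against the 3 day 0 libraries (horizontal), with the line of equal values. The chr12qF1 microRNAs (35) and miR-483 and miR-675 (2, which lie on each other) stand above the line, as do the 14 others past the threshold, most of them by less. The 200 remaining microRNAs lie on both sides of the line, some of the low ones far from it.

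The chr12qF1 microRNAs made up 0.0281%, 0.0301% and 0.0338% of the other reads at day 0 and 1.49% and 6.98% in LKO A and B. That is 61, 76 and 84 reads for the whole locus in the 3 day 0 livers. On the log scale the sum was 105-fold higher in LKO (exact two-sided permutation test, p = 0.1, the smallest possible), 228-fold without LKO A and 48.6-fold without LKO B. The LKO livers differed from each other by 4.69-fold, far more than the day 0 livers did. At day 45 the share was 1.07%, 4.28% and 6.61%, a range that contains LKO A and ends just below LKO B, and in LKO with AAV-Cre it was 6.02% and 9.23%.

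Of the 52 microRNAs listed for the locus, 47 had a read in at least 1 LKO liver and 27 had none in any day 0 liver. The 5 without a read in LKO were miR-432, miR-1188, miR-758, miR-654 and miR-453. Enough reads for the test were found for 35, and 34 of these were called higher, where 19.9% of all tested were. Only 6 of the 35 had a day 0 mean of 10 RPM or more and the other 29 passed the filter through the LKO libraries, and the 17 that did not pass it had at most 17.4 RPM as their LKO mean, so the count of 34 describes the members with reads and not the whole list. The exception was miR-433, with 0, 0 and 3.90 RPM at day 0 and 3.09 and 74.6 RPM in LKO (log2 difference 3.37, SE 1.70, limma adjusted p = 0.208). Both LKO libraries lay above all day 0 libraries for the same 34, where 34.3% of all tested did. Among the 34 called, miR-134, miR-381 and miR-673 were not called without day 0 C, with only the 2 groups in the fit or with libraries centred. The call of miR-667 was lost without day 0 A and with libraries centred, and that of miR-540 with only the 2 groups in the fit. Without LKO B, 7 were too low to be tested, and without LKO A this held for miR-667. The median log2 difference of the 35 was 6.61, or 4.97 when the 11 tested members without a day 0 read are set at the least change their reads allow and the 12 with 1 to 3 day 0 reads at the lower end of their counting interval, beside 0.65 for all 251.

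The most abundant member in LKO was miR-376a, at 88.0, 35.8 and 48.3 RPM at day 0 and 3114 and 12086 RPM in LKO. miR-127, which lies antisense to the imprinted gene Rtl1 and is perfectly complementary to its transcript, had 92.5, 35.8 and 121 RPM at day 0 and 2278 and 9018 RPM in LKO. These were the members with the most reads at day 0, and their LKO values exceeded every day 0 value many times over. The log2 difference was 6.82 (SE 0.72) for miR-376a and 5.92 (SE 0.97) for miR-127, with limma adjusted p = 1.01e-06 and 8.06e-05. Without LKO B these differences were 5.84 and 4.93, and without LKO A 7.79 and 6.91.

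miR-136 rose from 18.3, 59.5 and 28.2 RPM to 1195 and 9491 RPM. miR-154 rose from 1, 3 and 2 reads to 166 and 4438 reads, 505 and 8711 RPM in LKO. miR-541 rose from 9.36, 31.6 and 28.2 RPM to 1417 and 6676 RPM. Together with miR-376a, miR-127 and miR-376b, these made up 63.0% of the locus in LKO A and 77.7% in LKO B, so a few hairpins carried most of the signal in both livers. The largest fitted log2 difference of the 251 was that of miR-376b (8.92, SE 1.16, limma adjusted p = 6.76e-06). It had 0, 3 and 3 reads at day 0 and 285 and 4205 reads in LKO (867 and 8254 RPM). Its rank depends on single libraries. Without LKO B its difference was 7.29, below miR-483 (12.6), miR-675 (9.94), miR-299 (8.74), miR-409 (8.19), miR-665 (7.68) and miR-434 (7.33). Without day 0 A it was 7.69, below miR-665 (9.68), miR-434 (8.89), miR-299 (8.75) and others.

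Several large rises start from no read or a single read at day 0, so that only a bound or a wide ratio can be given. miR-299 had no day 0 read and 425.7 and 433.8 RPM in LKO, at least 30.9-fold higher. miR-409 had none and 292 and 332 RPM, at least 22.4-fold higher. These 2 microRNAs were close to equal in the LKO livers, unlike the sum of the locus. In the same way miR-377 was at least 10.0-fold, miR-1193 at least 9.11-fold and miR-410 at least 6.27-fold higher, the latter with 42.6 and 132 RPM in LKO. Without LKO B the bound is 3.07-fold for miR-410 and 5.91-fold for miR-377. miR-665 had 1 read at day 0 and 119 and 940 in LKO, a ratio per other read of 905 with a counting interval from 162 to 35769, and of 259 without LKO B. miR-434, from the same Rtl1 antisense run as miR-127, had 1 read at day 0 and 93 and 403 in LKO, a ratio of 424 with an interval from 75.7 to 16771, and of 202.5 without LKO B. miR-382 had 1 read at day 0 and 81 and 220 in LKO, a ratio of 257 with an interval from 45.8 to 10190.

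**Figure D3:**
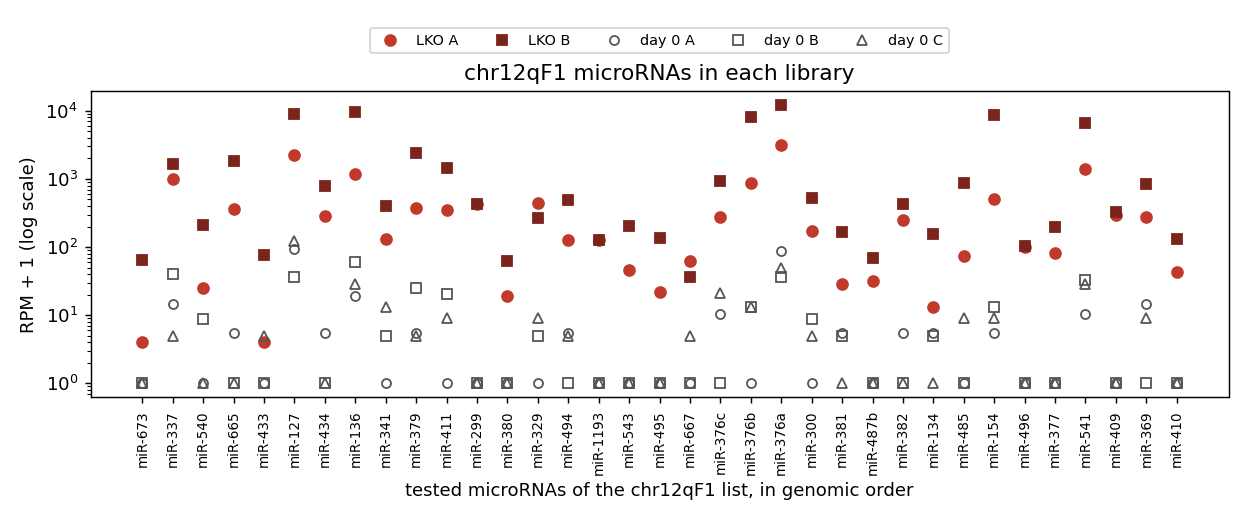
RPM + 1 (log axis) of the 35 tested chr12qF1 microRNAs in genomic order, for LKO A and B (filled) and the 3 day 0 libraries (open, where 1 is no read). LKO B lies above LKO A for 32 of the 35, and all but miR-433 have both LKO libraries above every day 0 library.

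Called members lay along the whole length of the locus, beside 19.9% called of all tested, and as above most of them entered the test through the LKO libraries. From Mir770 to Mir665 all 4 tested hairpins passed, from Mir431 to Mir136 3 of 4, between Mir341 and Mir370 the only tested hairpin, and from Mir379 to Mir410 all 26. The last run held 64.4% and 66.2% of the locus reads in LKO A and B, between 48.8% and 52.5% at day 0, and 52.9% to 64.2% at day 45. The run from Mir431 to Mir136, with miR-127, miR-434 and miR-136, held 25.4% and 27.8% in LKO and 31.6% to 46.5% at day 0, where it rests on few reads. The run from Mir770 to Mir665 held 9.30% in LKO A and 5.44% in LKO B, and that from Mir341 to Mir370 0.879% and 0.5965%. The larger runs thus had close shares in both LKO livers, and the smaller ones took more of the locus in LKO A. Over the 35 tested members the LKO B value was a median of 3.88 times that of LKO A, with single members from 0.580 to 24.1 times. The tested members with more in LKO A were miR-329, miR-1193 and miR-667.

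The microRNAs of the Igf2 locus had no read in any day 0 liver. miR-483 had 6161 RPM in LKO A and 5.88 RPM, 3 reads, in LKO B. miR-675 had 982 RPM in LKO A and 47.2 RPM in LKO B. Both were called higher (log2 difference 7.69, SE 2.13, limma adjusted p = 0.0113 for miR-483, and 7.77, SE 1.22, limma adjusted p = 5.97e-05 for miR-675), and both rest chiefly on LKO A. The LKO B value of miR-483 lies below the day 0 limit of 13.9 RPM, and miR-483 was too low to be tested without LKO A. Its call was also lost with only the 2 groups in the fit (limma adjusted p = 0.21). For miR-675 the LKO mean was at least 37.0-fold higher than the day 0 limit, and still at least 3.39-fold without LKO A. The sum of both was 7143 RPM in LKO A and 53.0 RPM in LKO B, 135-fold apart (log2(RPM + 1) difference from day 0 of 9.28, 5.76 without LKO A and 12.8 without LKO B, exact permutation p = 0.1).

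The LKO livers thus stood in opposite order at the imprinted loci. LKO A, with more miR-122 left, had less of chr12qF1 and more of the Igf2 locus, and LKO B had the reverse. The microRNAs of the Gnas locus, an imprinted region on another chromosome, also differed, with a sum of 362 RPM in LKO A and 19.6 RPM in LKO B beside 3.92 to 22.8 RPM at day 0. miR-296 of that locus had 328 and 11.8 RPM and did not pass the test (log2 difference 3.36, SE 1.29, limma adjusted p = 0.0795), and neither did miR-298 (1.78, SE 1.15, adjusted p = 0.335). In LKO with AAV-Cre, where both livers were high in chr12qF1, the Igf2 sum was 5613 and 3912 RPM. At day 45 it was 113, 481 and 9.52 RPM. With 2 livers per LKO group no relation between the loci can be tested.

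Outside both loci, 14 of 214 tested microRNAs were called higher (6.54%) and none lower. The median log2 difference of the 214 was 0.54, and 63.6% lay within 1 log2 unit of 0. The count depends on single libraries more than that of chr12qF1 does. It is 5 without LKO A, 21 without LKO B and 6 without day 0 C. It is also 5 with only the 2 groups in the fit, 6 with libraries centred and 8 with the replicate block. In LKO A 75 of the 214 were more than 2-fold above LKO B and in LKO B 18 were more than 2-fold above LKO A.

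The largest group among the 14 was that of the bile duct epithelium. Of 7 tested members of the biliary epithelial list, miR-205, miR-200a, miR-141, miR-429 and miR-200b were called higher, where 6.54% of those tested outside both loci were. Of these, miR-205, with 2 day 0 reads in all, passed the filter only through the LKO libraries. The median of the list was 3.25 beside 0.65 for all tested, and its summed level was 1806, 4320 and 916 RPM at day 0 and 10178 and 5304 RPM in LKO. miR-200a, which represses the Zeb factors of epithelial-mesenchymal transition, had 394, 523 and 141 RPM at day 0 and 3674 and 3518 RPM in LKO. Its LKO values were nearly equal and both lay well above day 0 (log2 difference 3.54, SE 0.58, limma adjusted p = 8.06e-05). miR-429, which follows miR-200b and miR-200a on 1 transcript of chromosome 4, had 46.4, 95.03 and 20.1 RPM at day 0 and 474 and 398 RPM in LKO (3.25, SE 0.67, adjusted p = 0.00085), a call that was lost with only the 2 groups in the fit (limma adjusted p = 0.0503).

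miR-200b had 542, 523 and 129 RPM at day 0 and 3999 and 687 RPM in LKO, and its call was lost without LKO A, where the log2 difference was 1.05 instead of 2.32, and without day 0 C (1.64). It was also lost with the replicate block, with only the 2 groups in the fit and with libraries centred. miR-141 of the second cluster, on chromosome 6, had 23.2, 31.6 and 0 RPM at day 0 and 137 and 66.8 RPM in LKO (log2 difference 3.39, SE 1.05, limma adjusted p = 0.0237), and was not called without LKO A (2.87), without day 0 C (1.78), with libraries centred or with only the 2 groups in the fit. Its neighbour miR-200c had 60.3, 63.4 and 20.1 RPM at day 0 and 189 and 137 RPM in LKO, above every day 0 value but not past the threshold (1.89, SE 0.77, adjusted p = 0.102). miR-205, another epithelial microRNA, had 0, 1 and 1 reads at day 0 and 36 and 29 reads in LKO, a ratio per other read of 27.8 with a counting interval from 7.38 to 234. The remaining member, miR-31, had 741, 3081 and 602 RPM at day 0 and 1596 and 440 RPM in LKO (log2 difference −0.41). Thus 6 of the 7, miR-205 among them, had both LKO livers above all day 0 livers, where 34.3% of all tested did. The values of miR-31 overlapped.

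The mesenchymal list was less uniform. miR-214 had 125.1, 119 and 60.6 RPM at day 0 and 1490 and 593 RPM in LKO (log2 difference 3.27, SE 0.71, limma adjusted p = 0.00132). miR-199a-1 had 412, 638 and 64.5 RPM at day 0 and 2053 and 962 RPM in LKO (2.44, SE 0.79, adjusted p = 0.0308), and the copies miR-199a-2 and miR-199b passed with it (2.05 and 2.28). These are 4 of the 6 tested, where 6.54% of those outside both loci were called. Both LKO livers lay above day 0 for the same 4, where 34.3% of all tested did. The 3 miR-199 hairpins share 1 mature 3p sequence, so the same reads may stand behind all 3 of their calls. None of the 4 was called without LKO A (log2 differences from 1.44 to 2.60), and miR-199a-1, miR-199a-2 and miR-199b were not called without day 0 C either (1.38 to 1.55), nor with libraries centred, with only the 2 groups in the fit or with the replicate block. The call of miR-199a-2 was also lost without day 0 A, without a filter and with miR-21 left out of the scaling. miR-143 and miR-145, the smooth muscle microRNAs of the list, were not called, with log2 differences of −0.35 and 1.79. The summed list was 6971, 9548 and 4670 RPM at day 0, 22509 RPM in LKO A and 6540 RPM in LKO B, so on the sum LKO B lay among the day 0 livers.

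The other calls were miR-342, miR-195, miR-181b-2, miR-181c and miR-425. miR-342, a microRNA of B cells and other leukocytes encoded in an intron of Evl, had 83.5, 115 and 101 RPM at day 0 and 1028 and 822 RPM in LKO (log2 difference 3.20, SE 0.73, limma adjusted p = 0.00199). It lies on chromosome 12 at chr12:108658680-108658702 for the 3p arm, outside the imprinted locus. miR-195, which shares its seed with miR-15 and miR-16 and lowers cell cycle genes, had 565, 1180 and 456 RPM at day 0 and 5100 and 3512 RPM in LKO (2.65, SE 0.57, adjusted p = 0.00117). Outside both loci, the calls of miR-200a, miR-205, miR-429, miR-214, miR-342 and miR-195 held without each day 0 library in turn. Without LKO A or without LKO B, the log2 differences of these microRNAs were 2.38 to 5.26. miR-181b-2 (1.96), miR-181c (1.75) and miR-425 (1.41) had the 3 smallest of the 50 differences, 1.37 to 2.02 without LKO A and 1.45 to 1.90 without LKO B. None of the 3 was called without day 0 C, with libraries centred or with only the 2 groups in the fit. The call of miR-425 was also lost without day 0 A and without day 0 B, and that of miR-181b-2 without day 0 A.

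**Figure D4:**
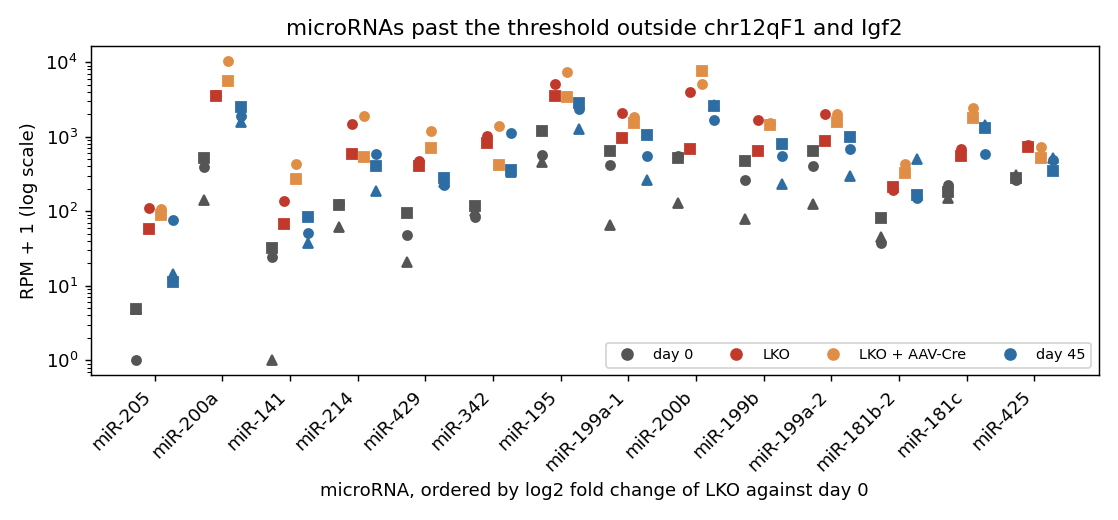
RPM + 1 (log axis) of the 14 microRNAs called outside the chr12qF1 and Igf2 lists, by library (circle, replicate A; square, B; triangle, C) for day 0, LKO, LKO with AAV-Cre and day 45. Both LKO libraries lie above all day 0 libraries for each of the 14, and the narrowest separations are those of miR-200b and miR-199a-2.

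Of 8 tested leukocyte microRNAs only miR-342 was called, where 6.54% of those tested outside both loci were. Both LKO livers lay above all day 0 livers for 4 of the 8 (beside 34.3% of all tested), the list median was 1.34, and the sums were 5067, 4384 and 5893 RPM at day 0 against 12398 RPM in LKO A and 4827 RPM in LKO B. miR-223, the neutrophil microRNA, had 598, 340 and 335 RPM at day 0 and 4145 and 563 RPM in LKO (log2 difference 1.90, SE 0.75, limma adjusted p = 0.0887). The 3 erythroid microRNAs had a median of −1.20 with none called, and the endothelial miR-126 had 37749, 42476 and 38189 RPM at day 0 and 27104 and 32137 RPM in LKO (−0.42, SE 0.42, adjusted p = 0.58). Of muscle and pancreas microRNAs the sums stayed at or under 84.9 RPM in all 5 libraries. The sum of the neural list was 371 RPM in LKO A, from the miR-124 copies, and 8.99 to 19.6 RPM in the other 4. LKO A thus also carried more of the mesenchymal, leukocyte and neural microRNAs than LKO B, and the part of such cells in the differences of LKO A was not tested.

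Of the hepatocyte microRNAs other than miR-122, none of the 8 tested was called, beside 6.54% of those outside both loci, and their median was 0.14. Their sum was 68130, 139300 and 44703 RPM at day 0 and 68027 and 89911 RPM in LKO, within the day 0 range. miR-192, the most abundant of them, had 32001, 68652 and 29104 RPM at day 0 and 28889 and 41920 RPM in LKO (log2 difference −0.20, SE 0.58, limma adjusted p = 0.88). miR-802, a hepatocyte microRNA tied to glucose metabolism, had 949, 440 and 779 RPM at day 0 and 909 and 610 RPM in LKO (0.12, SE 0.93).

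Of the large families, only that of miR-15 and miR-16 held a call, miR-195 (1 of 6 tested, list median 0.69). At 6.54% called outside both loci, these counts say little of lists this short. None of 11 let-7 hairpins (median 0.32), 6 of miR-30 (0.41), 12 of the miR-17 clusters (0.21), 4 of miR-29 (0.23), 6 of miR-23, miR-27 and miR-24 (0.92) or 6 of miR-99, miR-100 and miR-125 (0.94) passed. let-7a-2, the let-7 hairpin with the most reads, had 89019, 32290 and 122300 RPM at day 0 and 68872 and 58412 RPM in LKO (log2 difference −0.15, SE 0.54). miR-21, the microRNA with the highest mean in LKO when miR-122 is left out and one that rises in many liver injuries, had 45364, 223890 and 16960 RPM at day 0 and 80446 and 112590 RPM in LKO (0.77, SE 0.75, limma adjusted p = 0.565). Day 0 B is the liver that spreads these values, with the most miR-21 and the least let-7 of the 5. For miR-21 and let-7a-2 both LKO livers lay within the day 0 range. The summed miR-99, miR-100 and miR-125 list was 20584, 16625 and 16487 RPM at day 0 and 34263 and 22114 RPM in LKO, with both LKO livers above day 0 although no member passed.

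**Figure D5:**
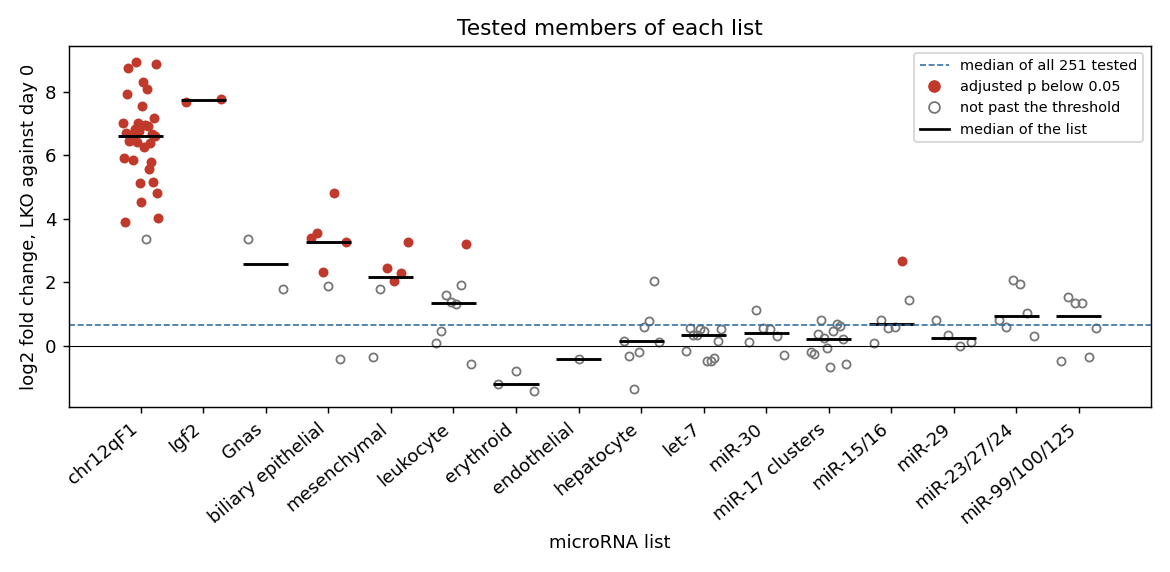
Fitted log2 difference of LKO against day 0 for the tested members of 16 microRNA lists (filled, adjusted p under 0.05; open, not past it; black bar, list median; dashed line, median of all 251). The chr12qF1 and Igf2 members lie between 3.37 and 8.92, 5 biliary epithelial and 4 mesenchymal members are filled, and the medians of the let-7, miR-30 and miR-17 lists lie below the dashed line, with no member filled.

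The 5 microRNAs with both LKO libraries below all day 0 libraries were miR-805, miR-511, miR-126, let-7g and miR-30e, and none passed the test. miR-805 had the largest difference, with 2108, 752 and 2486 RPM at day 0 and 474 and 750 RPM in LKO (log2 difference −1.40, SE 0.58, limma adjusted p = 0.109). The LKO B value all but equals that of day 0 B, and without day 0 B miR-805 was called lower (−1.94, limma adjusted p = 0.0158), as were miR-26a-1, miR-26a-2 and miR-26b (−1.41 to −1.38). Without LKO B, miR-1-1 was called lower. With libraries centred miR-805 was called lower as well (−2.36), beside a median of −0.30 for all tested in that setting. The differences of let-7g and miR-126 turned positive and passed the threshold when reads of miR-122 were kept in the scaling.

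LKO livers were also set against the day 45 livers, which lost miR-122 as adults through a virus rather than through a transgene. Among 270 tested, none passed the adjusted p (limma), and 18 (6.67%) had an unadjusted p under 0.05. For the chr12qF1 list the median log2 difference of LKO against day 45 was −0.07 and none of its members had an unadjusted p under 0.05. Each group's own values against the same 3 day 0 livers were medians of 6.61 and 6.61 for chr12qF1, 7.73 in LKO and 5.03 at day 45 for the Igf2 locus, 3.25 and 2.60 for the biliary list, and 2.17 and 1.08 for the mesenchymal list. These pairs share their controls and are given side by side only. Set directly against day 45, miR-675 differed by 2.66 (SE 1.19, limma adjusted p = 0.624) and was the Igf2 microRNA with an unadjusted p under 0.05.

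The smallest p belonged to miR-802, which had 909 and 610 RPM in LKO, 239, 98.4 and 18.9 RPM at day 45 and 135.7 and 118 RPM in LKO with AAV-Cre. The LKO values lay within the day 0 range of 440 to 949 RPM and those of the other groups below it (LKO against day 45, log2 difference 3.26, SE 0.94, limma adjusted p = 0.566). The hepatocyte list as a whole had a median of 1.40 in that comparison, with an unadjusted p under 0.05 for 3 of 8, beside 6.67% of all tested. miR-34a, a target of p53, lay the other way, at 262 and 243 RPM in LKO and 2810, 756 and 304 RPM at day 45 (−1.77, SE 0.70, adjusted p = 0.624). The comparison left differences as large as those of miR-802 and miR-466b-2 (−4.04) short of the threshold, so large differences between LKO and day 45 could pass undetected.

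LKO with AAV-Cre was compared with LKO. None of 259 tested passed (limma), and 15 (5.79%) had an unadjusted p under 0.05. The groups did not overlap in miR-122, as given above. The biliary list sum was 19156 and 16304 RPM with the vector beside 10178 and 5304 RPM without, and miR-200a had 10389 and 5665 RPM beside 3674 and 3518 RPM. The mesenchymal sum, 11314 and 15594 RPM with the vector, lay between the LKO values.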

How the data were processed

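Small RNA of liver was ligated to barcoded adapters and sequenced on a MiSeq. The authors aligned reads to mouse microRNAs (Bowtie 0.12.7, per the submitters' processing notes), with up to 2 mismatches and miRBase release 15, and deposited RPM per hairpin with 1 added to every value. How reads matching several hairpins were counted is not given in the sources used here. The added 1 was subtracted. The low values are then whole multiples of a step (100% of 9394 within 0.15 of a whole number), which gave the read numbers. Values were rescaled to reads other than miR-122.

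Differences were tested on log2(RPM + 1) with limma 3.58.1 (R 4.3.3), on 19 libraries of 7 groups that share 1 estimate of the spread, with a filter that kept microRNAs averaging 10 RPM or more over the libraries compared, with Benjamini-Hochberg adjustment. Fold changes on this scale understate those of low microRNAs. miR-122 and locus sums were tested by exact permutation. All 42 sample columns were mapped, and the replicate letters of the labels name different animals. Scripts were tested on simulated data. The members, lists and tests were chosen with earlier results of these data known. Named microRNAs are those the study names, the 12 largest rises and up to 6 falls whose libraries do not overlap, the 10 most abundant in LKO and the 2 to 4 most abundant of each list; others were named after their values were seen. Limma p-values rest on the spread between livers within all 7 groups, and permutation p-values on the 5 livers compared. Alternatives were other scalings, filters and pseudocounts, 2 groups only, a block by replicate letter and each library left out.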

Additional observations from a re-analysis of the deposited data

How the results depend on the processing

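The miR-122 and chr12qF1 differences kept their direction under all alternatives run. Their log2 values were −4.42 to −2.82 and 5.60 to 7.83 when single libraries were left out. The Igf2 difference could not reverse, since no day 0 liver had a read of that locus, and only its size could change. That size was 5.76 to 12.8 with single libraries left out and 6.07 with a pseudocount of 10. The number of microRNAs called, LKO against day 0, was 50 and lay between 36 (only the 2 groups in the fit) and 58 (without day 0 replicate B, 54 higher and 4 lower) under all alternatives but 1, and between 39 and 58 with single libraries left out. With the reads of miR-122 kept in the scaling it was 155, all higher, and the median of all tested rose from 0.65 to 2.12. Under that scaling the named microRNAs let-7a-2 (1.35), let-7g (1.11) and miR-126 (1.08) turned from negative to called higher. Sign changes that did not pass the threshold are not listed. In that scaling every other microRNA rises where miR-122 takes fewer reads, and a rise per cell cannot be told apart from this. Calls outside the chr12qF1 and Igf2 lists were 14, and 5 with only the 2 groups, 6 with libraries centred and 8 with the replicate block. Without a filter 1 microRNA, miR-197, was called higher in LKO than at day 45 and 1, the same, lower in LKO with AAV-Cre than in LKO, and both counts are 0 otherwise. Its levels were 21.3 and 17.6 RPM in LKO and 0 in the other livers of both comparisons.

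Replicate letters are shared between the groups but name different animals, and the deviations of same-lettered livers correlated by 0.21 (A) and −0.03 (B). With the replicate block by letter 44 were called instead of 50, and 0 in each of the other comparisons. Chosen after seeing the data were the summing of hairpin copies, a scaling without chr12qF1 reads and the locus list by RefSeq position. With copies summed 48 were called, 12 of them outside both loci, and with the scaling 50. The list by position gave a log2 of 6.72, as with the list used. The planned count models were not run, because the deposited values are not counts. For a microRNA without a read the limit of 3 reads is 11.9 to 13.9 RPM at day 0, and 37.8 RPM in day 45 A and 15.5 RPM in day 45 B.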

Other observations

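Among members of the lists described above, miR-24-2, of the miR-23, miR-27 and miR-24 list, had 1019, 1826 and 508 RPM at day 0 and 2533 and 5547 RPM in LKO and did not pass the test (log2 difference 1.93, SE 0.92, limma adjusted p = 0.173). miR-22, the hepatocyte list member with the largest difference, had 2344, 8510 and 1066 RPM at day 0 and 14724 and 8664 RPM in LKO (2.03, SE 1.03, adjusted p = 0.209), above day 0 B by little in LKO B. The 7 microRNAs of the miR-322 and miR-503 cluster, which slow the cell cycle, had a median of −0.39 with none called, beside 0.65 for all tested.

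In the mice taken at single later times after AAV-Cre, which enter no comparison here, the summed level of miR-483 and miR-675 was 5149 RPM at day 100 and 3733 RPM at day 200, within the range of 53.0 to 7143 RPM of the LKO livers.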
